A study of Homo sapiens with 2 samples.

Results

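The mucosal secretory genes described here are 10 genes whose products are found in mucus and other epithelial secretions: LYZ, LCN2, SLPI, TFF1, TFF2, TFF3, MUC1, MUC13, AGR2 and SPP1. They were picked by name from the 44591 genes of the deposited count table, with the raw counts of both libraries already known, so their values are given as a description and support no test. All 10 had a row in the table. MHCC97H and MHCC97L are established human hepatocellular carcinoma lines, which the labels give as wild type, with high spontaneous metastatic potential for the first and low for the second. Both were grown in DMEM with fetal bovine serum, and the labels name no treatment. Each line was represented by 1 library of poly(A)-selected RNA, and the columns of the count table summed to 28967153 reads (MHCC97H) and 24964246 reads (MHCC97L). No replicate stands behind any value, so every comparison is between these 2 libraries, and the intervals below cover counting error only. Since amplified reads carry no molecular identifiers, they are not independent molecules and the true counting error may be larger. In bulk RNA, fewer cells with a transcript and less transcript per cell cannot be told apart.

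Mucosal surfaces are covered by a gel of secreted mucins and by membrane-bound mucins, between which epithelial cells release antibacterial proteins, protease inhibitors and small trefoil peptides. The endoplasmic reticulum of such cells carries dedicated folding enzymes for cysteine-rich mucins. In healthy liver several of these genes are associated mainly with bile duct epithelium and with resident or infiltrating leukocytes rather than with hepatocytes.

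The labelled cell type was compared with its markers. Of 10 hepatocyte markers, SERPINA1 (alpha-1 antitrypsin) had 178314 reads in MHCC97H and 198075 in MHCC97L, and the liver transcription factor gene HNF4A had 2484 and 2273. Albumin (ALB) had 57 and 131 reads. Of the remaining hepatocyte markers, TTR had 1381 and 1655 reads, AMBP 128 and 330, APOB 80 and 106, and FGB 34 and 21. TF (10 and 24), APOA2 (10 and 17) and APOA1 (4 and 4) had fewer still. The list was thus uneven, with most of its genes at low counts. The fetal liver and tumour marker AFP had 12 and 23 reads. Of the other liver tumour markers, the keratin genes KRT8 (248274 and 213079 reads) and KRT18 (162187 and 114547) were abundant. The glypican gene GPC3 had 1600 and 1234 reads. These 3 genes were kept by the filter described below, and DLK1 had 0 reads in both libraries. The bile duct and simple epithelium genes KRT19 (16325 and 13064 reads) and EPCAM (11409 and 7052 reads) were abundant in both.

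Sequences are shown for AGR2 and MUC1, which lay at the upper and lower ends of the log2 ratios between the libraries among the genes kept, and for LCN2, whose window held a match to an NF-kB-type motif. Each is the 250 bases before the annotated start in RefSeq (build GRCh38.p14, which differs from the hg19 build named for the counts), written 5′ to 3′ on the gene's strand, with motif matches in capitals. AGR2 lies at chr7:16805000-16805249 on the minus strand, MUC1 (first of 2 listed starts) at chr1:155192916-155193165 on the minus strand, and LCN2 at chr9:128149203-128149452 on the plus strand.
AGR2: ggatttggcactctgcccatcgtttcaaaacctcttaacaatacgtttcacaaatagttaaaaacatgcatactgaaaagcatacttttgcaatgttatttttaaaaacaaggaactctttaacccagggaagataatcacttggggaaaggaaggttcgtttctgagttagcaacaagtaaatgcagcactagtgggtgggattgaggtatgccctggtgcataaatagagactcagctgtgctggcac
MUC1: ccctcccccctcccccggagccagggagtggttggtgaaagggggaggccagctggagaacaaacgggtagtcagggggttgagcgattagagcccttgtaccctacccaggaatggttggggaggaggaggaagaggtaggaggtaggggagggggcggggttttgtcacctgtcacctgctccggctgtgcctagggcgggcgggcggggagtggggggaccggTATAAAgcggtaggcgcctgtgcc
LCN2: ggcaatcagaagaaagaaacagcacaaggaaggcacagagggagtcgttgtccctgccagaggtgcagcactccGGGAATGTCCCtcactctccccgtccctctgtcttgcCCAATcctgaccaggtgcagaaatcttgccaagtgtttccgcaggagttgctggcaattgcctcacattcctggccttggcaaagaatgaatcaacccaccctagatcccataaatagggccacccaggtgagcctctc

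The 3 windows differ in base composition, at 40.4% GC for AGR2, 66.0% for MUC1 and 54.8% for LCN2, against a median of 58.0% over 27305 promoters. The 6 motifs searched on both strands were the TATA box TATAAA, the CCAAT box, the forkhead-type motifs TGTTTAC and TGTTTGC (2.98% and 3.19% of windows), the motif GTTAAT and an NF-kB-type motif, GGGA and TCC parted by any 3 bases. MUC1 held TATAAA from base 24 to base 19 before the start, a motif present in 11.1% of all windows. LCN2 held CCAAT (33.0% of windows) and overlapping matches to the NF-kB-type motif on both strands (4.33% of windows), the first from base 176 to base 167. AGR2 held none of these letters. Among the other members with an entry, MUC13 and SPP1 each held GTTAAT (6.22% of windows). LYZ, SLPI, TFF1, TFF2 and TFF3 have no sequence shown.

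A second sequence bears on how MUC1 was counted. The MUC1 protein carries a long tandem repeat, and in the longest annotated MUC1 transcript (4170 bases, GENCODE release 29) the most frequent run of 60 bases occurs 19 times exactly. It is shown because identical copies cannot be told apart by a short read, and because its GC content (81.7%) is far above that of the remaining transcript (58.7%).
MUC1 repeat: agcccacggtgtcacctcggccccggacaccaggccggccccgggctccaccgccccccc
Copies with at most 6 mismatches covered 57.6% of the transcript. How reads from these copies were treated is not given in the sources used here, so the level of MUC1 per length of transcript is uncertain.

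Of the antibacterial and antiprotease genes, LYZ was among the most abundant transcripts of both libraries, while SLPI was near the limit of detection. LYZ encodes lysozyme, which cuts the peptidoglycan of bacterial cell walls. It had 82808 reads in MHCC97H and 57463 in MHCC97L. As CPM, the read count relative to a library size scaled by the trimmed mean of M-values (TMM), these were 2693 and 2443. LYZ reads were therefore slightly more frequent in MHCC97H, by 1.10-fold (95% counting interval 1.09 to 1.11). The sign of this small difference turned, however, when a trend with base composition and transcript length was removed (log2 ratio 0.14 before and -0.19 after). The gene took 0.286% of all counted reads in MHCC97H (95% exact interval 0.284 to 0.288) and 0.230% in MHCC97L (0.228 to 0.232). Per kilobase of its longest transcript it stood at 1760 CPM and 1597 CPM, rank 10 and rank 31 among the 14090 kept genes with a length. By CPM with no length correction the ranks of LYZ were 19 and 31. With the median length of its protein-coding transcripts, a choice made after the data were seen, they were 10 and 22. LYZ made up 86.4% of the reads of the 10 genes in MHCC97H and 84.2% in MHCC97L.

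**Figure D1:**
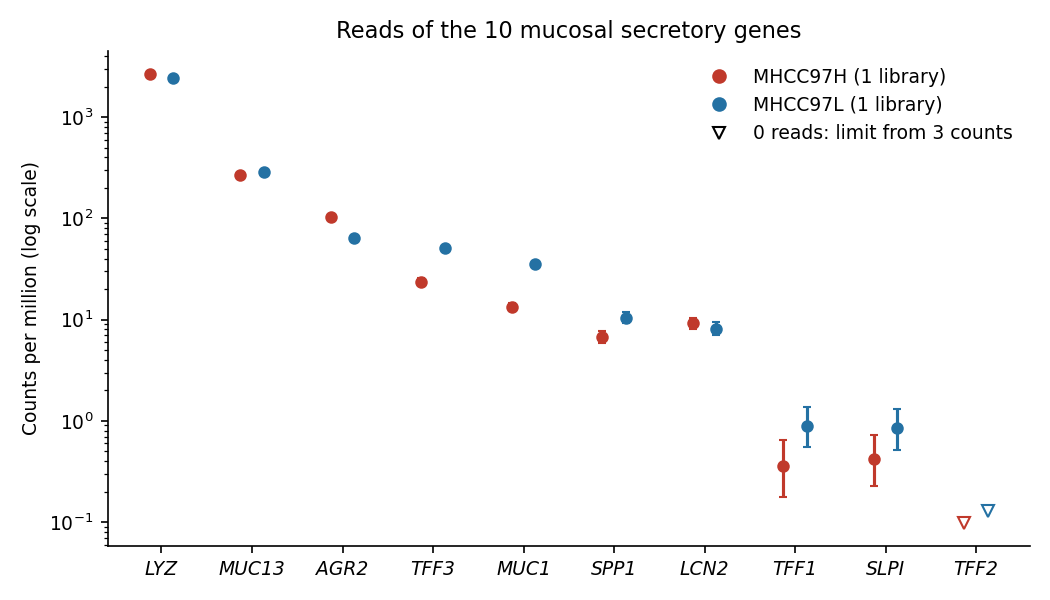
CPM (log scale, TMM-scaled) of the 10 mucosal secretory genes in the MHCC97H and MHCC97L libraries, with exact 95% Poisson intervals where reads were counted; open triangles mark the limit that 0 reads allow. LYZ stood above 2400 CPM in both libraries, while TFF1 and SLPI stood below 1 CPM and TFF2 had no reads.

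The kept genes with levels most like LYZ, by distance of log2 CPM over the 2 libraries, were SCD (stearoyl-CoA desaturase, distance 0.067), ACTG1 (gamma-actin, 0.10) and the ribosomal protein gene RPL4 (0.30). With 2 libraries this likeness says no more than that their CPM values were near those of LYZ. Lysozyme is also a major product of macrophages, so myeloid markers are given beside it. Of 15 such markers, AIF1, TYROBP and SPI1 had 0 reads in both libraries, and the pan-leukocyte gene PTPRC had 1 read in MHCC97H and 0 in MHCC97L. The summed level of the 15 was 17.6 CPM in MHCC97H and 15.1 CPM in MHCC97L, most of it from CD68 (7.58 and 6.29 CPM) and CD14 (4.75 and 3.53 CPM). No other lysozyme gene on the list of relatives had more than 2 reads in either library. The genomic neighbours of LYZ, CPSF6 (an RNA cleavage factor gene) and YEATS4, had log2 ratios of 0.35 and 0.36, which became -0.41 and 0.00056 with the same trend removed. The annotation places an antisense gene on the opposite strand of LYZ, and no strand setting is given in the sources used here.

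LCN2 encodes lipocalin 2, which withholds iron from bacteria by binding their siderophores. It had 283 reads (9.20 CPM) in MHCC97H and 192 reads (8.16 CPM) in MHCC97L. Its log2 ratio of MHCC97H over MHCC97L was 0.17, with a 95% counting interval of -0.10 to 0.45 that included equal expression. Next to it in the genome, PTGES2, a prostaglandin synthase gene, had -0.31 (-0.35 to -0.27), and C9orf16 had -0.77 (-0.83 to -0.71). LCN2 thus stood above both neighbours. SLPI, the secretory leukocyte protease inhibitor, which blocks neutrophil elastase, was near the limit of detection with 13 reads (0.423 CPM) and 20 reads (0.850 CPM). Its interval, from -2.14 to 0.07, also included equal expression, and the gene did not reach 1 CPM in either library. Of its neighbours, SEMG2, a semen protein gene, had 0 reads in both libraries, and the matrilin gene MATN4 had 7 and 17.

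The 3 trefoil factors are small disulphide-bonded peptides secreted with mucins and known for epithelial repair. They are neighbours in the genome, in the order TFF3, TFF2, TFF1, yet TFF3 alone reached 1 CPM. TFF3, the trefoil factor of intestinal goblet cells, had 729 reads (23.7 CPM) in MHCC97H and 1193 reads (50.7 CPM) in MHCC97L. TFF1, a gastric trefoil factor, had 11 reads (0.358 CPM) and 21 reads (0.893 CPM). TFF2, also known from gastric mucus, had 0 reads in both libraries. The limit of 3 counts given to such a gene is 0.0976 CPM in MHCC97H and 0.128 CPM in MHCC97L. The exact 95% intervals reach somewhat higher, to 0.120 and 0.157 CPM. Both trefoil genes with reads were less frequent in the MHCC97H library. TFF3 was 2.14-fold lower there (95% counting interval 1.95 to 2.35), and the log2 ratio of TFF1 was -1.28 with a wide interval of -2.52 to -0.20. Of the genes flanking the cluster, the sterol transporter gene ABCG1, next to TFF3, stood at 53.2 and 71.0 CPM with a log2 ratio of -0.42, and TMPRSS3, next to TFF1, had 0 reads and 1 read.

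The membrane mucins, which form the glycocalyx on the apical surface, also differed from each other. MUC13, a mucin of the gut epithelium, had 8224 reads (267.5 CPM) in MHCC97H and 6771 reads (287.9 CPM) in MHCC97L, a log2 ratio of -0.11 (95% counting interval -0.15 to -0.06) that became 0.07 with scaling to total counts. Its neighbours were as close to equality, with 0.10 for the integrin gene ITGB5 and -0.12 for HEG1. MUC1 had 409 reads (13.3 CPM) and 834 reads (35.5 CPM). MUC1 was thus 2.66-fold lower in the MHCC97H library (2.37 to 3.01). MUC13 and MUC1 reads stood in a ratio of 20.1 within the MHCC97H library and 8.12 within the MHCC97L library, values that no scaling between libraries affects. Their transcripts differ in GC content (44.7% and 71.2%), however, and log2 ratios between the libraries ran with GC content, as described below. With the trend with GC content and transcript length removed, the log2 ratios were -0.36 for MUC13 and -0.97 for MUC1, which lie closer together. The annotation also lists a protein-coding gene on the strand of MUC1 whose exons overlap it, so its reads are not certain to be its own. THBS3, on one side of MUC1, had a log2 ratio of -0.69, and TRIM46, on the other, had 10 reads and 2 reads.

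AGR2 encodes a protein disulphide isomerase of the endoplasmic reticulum, known in the mouse for its part in making intestinal mucin. It was the member with the largest excess in MHCC97H, with 3158 reads (102.7 CPM) against 1518 reads (64.5 CPM), a log2 ratio of 0.67 (0.58 to 0.76) or 1.59-fold. AGR3, its paralog and genomic neighbour, had 101 reads (3.28 CPM) and 41 reads (1.74 CPM), a log2 ratio of 0.91 (0.38 to 1.47). TSPAN13, on the other side of AGR2, had a log2 ratio of 0.32 (0.23 to 0.40). All 3 genes were above equality, none reaching 2-fold. AGR2 and MUC1 reads stood in a ratio of 7.72 in MHCC97H and 1.82 in MHCC97L. These transcripts also differ in GC content (41.5% and 71.2%). With the trend removed the log2 ratios were 0.30 for AGR2 and -0.97 for MUC1.

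SPP1 encodes osteopontin, a secreted phosphoprotein that binds integrins and CD44 and is known in bile duct epithelium and in liver tumours. It had 209 reads (6.80 CPM) in MHCC97H and 246 reads (10.5 CPM) in MHCC97L. The level was 1.54-fold lower in the MHCC97H library (1.27 to 1.86). Its genomic neighbours were MEPE, with 0 reads in both libraries, and the polycystin gene PKD2, with a log2 ratio of 0.56 (0.16 to 0.98).

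A gene was kept if it reached 1 CPM of total counts in at least 1 library, and called if it differed by at least 2-fold with a counting interval that excluded equal expression. Of the 10 genes, 7 were kept, and TFF1, TFF2 and SLPI were not. Among the 7, MUC1 and TFF3 were called lower in MHCC97H and 0 were called higher. With scaling to total counts TFF3 (-0.92) no longer met the rule, and with the trend described below neither gene did. No test across samples exists for these calls, because there is 1 library per line. Over all 14578 kept genes, 4.65% were called lower and 7.06% higher. At a 1.5-fold threshold AGR2 was also called higher and SPP1 lower, against 19.3% and 13.8% of all kept genes. These shares are background only, since the 10 genes were chosen with these counts known. The median log2 ratio of the 7 was -0.11, beside 0.03 over all kept genes, and their values ran from -1.41 for MUC1 to 0.67 for AGR2. Set against all kept genes, 2.05% had a lower log2 ratio than MUC1, 3.78% a lower one than TFF3, and 83.2% a lower one than AGR2. LYZ, LCN2 and MUC13 lay in the middle, above 57.2%, 59.1% and 41.6% of them. Between members, the counting interval of LCN2 overlapped those of LYZ and MUC13, and no other pair of the 7 overlapped.

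**Figure D2:**
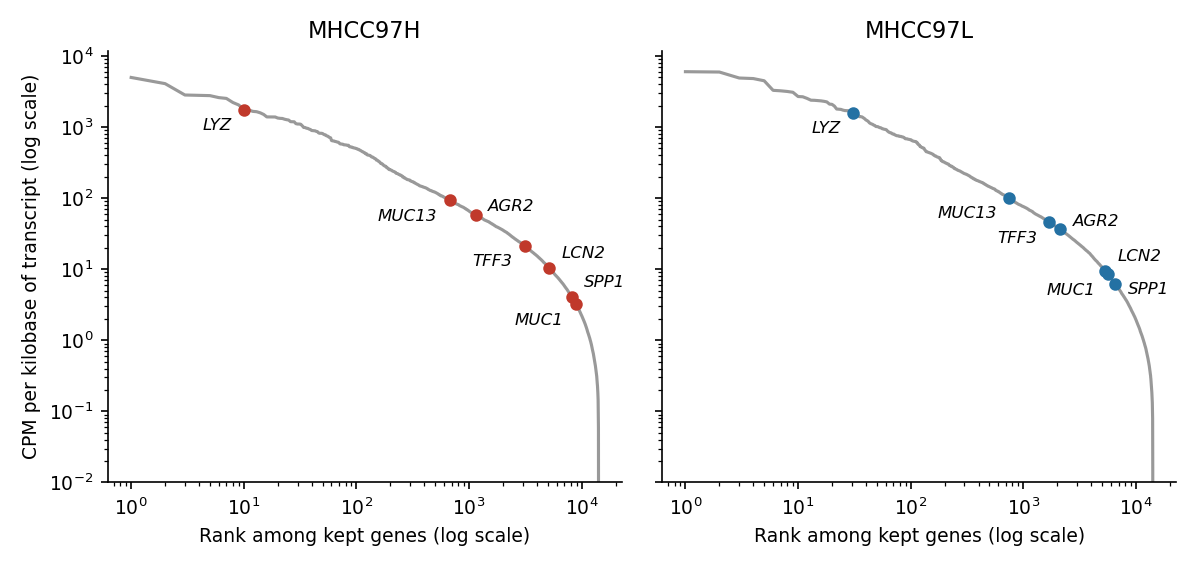
Level of the 7 kept genes in CPM per kilobase of the longest transcript (log scale) against their rank among kept genes (log scale), with the grey line running through all 14090 kept genes with a length. LYZ sat at rank 10 in MHCC97H and rank 31 in MHCC97L, and MUC13, the next member, at ranks 673 and 749.

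Per kilobase of longest transcript the order of levels in MHCC97H was LYZ, MUC13 (92.9 CPM per kilobase), AGR2 (57.8), TFF3 (21.4), LCN2 (10.5), SPP1 (4.09) and MUC1 (3.19). In MHCC97L it was LYZ, MUC13, TFF3 (45.7), AGR2 (36.3), LCN2 (9.31), MUC1 (8.50) and SPP1 (6.29). AGR2 and TFF3 exchanged places between the libraries, as did MUC1 and SPP1. Among neighbours in these orders, LCN2 and MUC1 in MHCC97L were the pair whose counting intervals overlapped. With the median length of the protein-coding transcripts in place of the longest, a choice made after the data were seen, MUC1 stood above LCN2 and SPP1 in both libraries, at rank 6280 in MHCC97H and rank 3612 in MHCC97L, so MUC1 and SPP1 then did not exchange places.

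The log2 ratio between these libraries ran with the GC content of the transcript, with a Spearman correlation of -0.63 across the 14090 genes, which are not independent replicates. The members lie at both ends of that range, so each is set beside kept genes within 1 percentage point of its own GC content. The transcript of MUC1 has 71.2% GC, and 31 such genes had a median log2 ratio of -0.50 against its -1.41. Outside the tandem repeat its GC content is 58.7%, and how reads of the repeat were counted is not given. This matching, and the value of MUC1 with the trend removed, are therefore uncertain. TFF3 has 54.9% GC, and 908 genes like it had a median of -0.22 against its -1.10. SPP1 has 41.8% GC, where 1165 genes had a median of 0.49, and only 4.38% of those lay below its -0.62. AGR2 and LYZ share a GC content of 41.5%, where the medians were both 0.53. AGR2 (0.67) lay above 60% of such genes and LYZ (0.14) above 23.6%. MUC13, at 44.7% GC, lay above 20.7% of 1030 genes, whose median was 0.29 against its -0.11. LCN2, at 56.8% GC, lay above 88.1% of 921 genes.

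**Figure D3:**
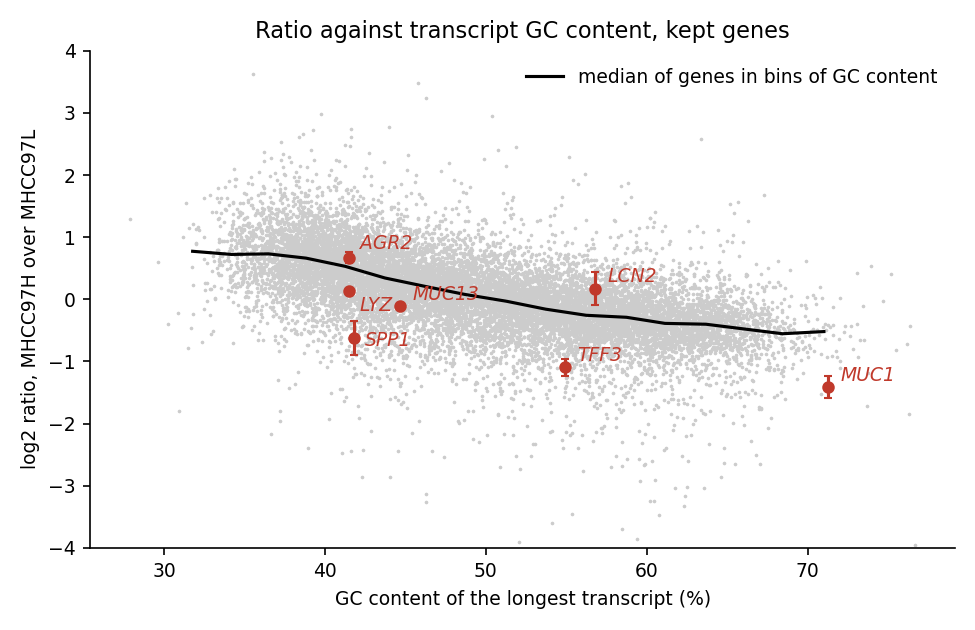
Log2 ratio of MHCC97H over MHCC97L against GC content of the longest transcript (percent) for kept genes (grey points, shown within 4 log2 units), the median in bins of GC content (black line) and the 7 kept mucosal secretory genes (red, with 95% counting intervals). MUC1, TFF3, SPP1, LYZ and MUC13 lay below the line and LCN2 above it, while AGR2 lay close to it.

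With a smooth trend with GC content and transcript length subtracted, the log2 ratios were -0.97 for MUC1, -0.96 for SPP1, -0.70 for TFF3, -0.36 for MUC13, -0.19 for LYZ, 0.30 for AGR2 and 0.66 for LCN2. Neither MUC1 nor TFF3 met the 2-fold rule then, so 0 members were called in either direction, against 2.49% of 14090 genes higher and 3.7% lower. LYZ changed sign, and LCN2 in place of AGR2 had the highest value. When the trend was taken over all protein-coding transcripts of a gene instead of the longest, MUC1 (-1.14) and SPP1 (-1.06) were called lower and TFF3 (-0.61) was not. The part of base composition in these differences was not tested further.

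**Figure D4:**
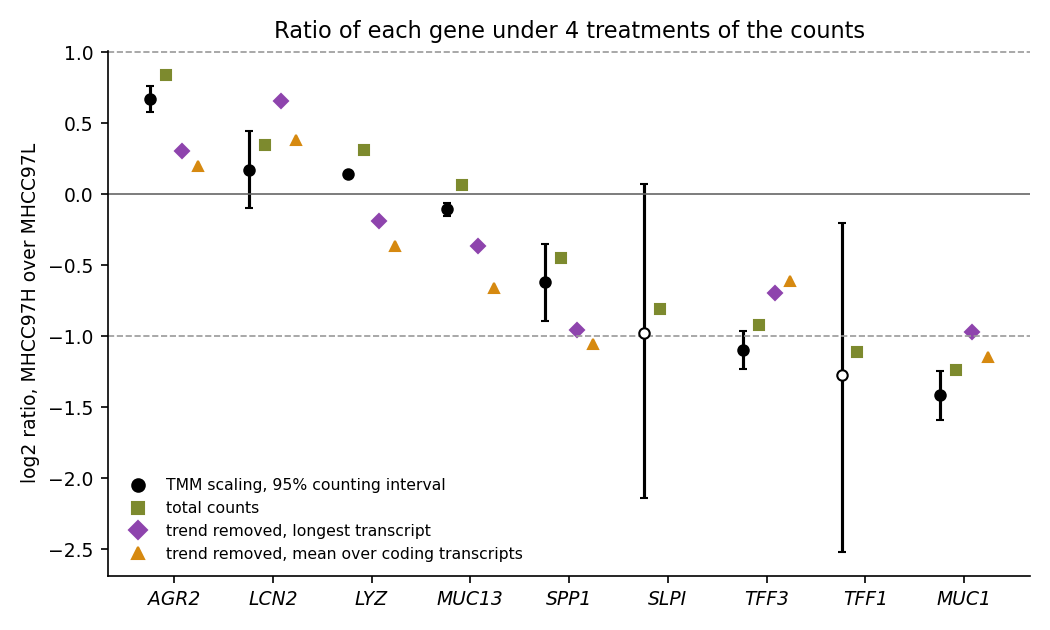
Log2 ratio of MHCC97H over MHCC97L for the 9 genes with reads, under TMM scaling (black, with 95% counting intervals; open circles are genes below the filter), total counts (squares) and the trend removed in 2 ways (diamonds and triangles); dashed lines mark 2-fold. MUC1, TFF3 and SPP1 stayed below 0 and AGR2 and LCN2 above 0 under each, while LYZ and MUC13 crossed 0.

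Related genes were taken from 7 lists, chosen with earlier results of these data known. As background to their counts of calls, 4.65% of all kept genes were called lower and 7.06% higher. None of the other mucin genes was called. Of 16, 3 were kept, 6 had 0 reads in both libraries, and the median log2 ratio was 0.02. MUC3A (38.5 and 30.5 CPM) and MUC20 (16.7 and 16.4 CPM), both membrane mucins, led by CPM. Each overlaps a noncoding gene in the annotation, so their counts are uncertain. The gel-forming mucin genes MUC2, MUC5AC, MUC5B and MUC6 were not kept, the highest being 7 reads for MUC5AC and for MUC5B in MHCC97L.

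Of 22 genes of goblet cells and mucus secretion, 11 were kept and 5 had 0 reads in both libraries. None of the 11 was called, and their log2 ratios ran from -0.89 to 0.91 with a median of -0.09. The tetraspanin gene TSPAN8 stood at 312.1 and 331.6 CPM, and CREB3L1, a transcription factor of the secretory pathway, at 249.2 and 250.8 CPM. ATOH1, which specifies secretory cells of the intestine and is named here after its value was seen, stood at 41.1 and 49.5 CPM. Of 18 transcription factors of secretory epithelium, 15 were kept and 0 called, with a median of -0.14. Scaled to total counts, the medians of the goblet cell and transcription factor lists turned positive (0.08 and 0.04). XBP1, which expands the endoplasmic reticulum in secretory cells, stood at 742.8 and 747.1 CPM. SPDEF, the goblet cell factor, also named after its value was seen, had a log2 ratio of -0.58 at 93.1 and 139.7 CPM. With the trend removed SPDEF stood at -0.10. The list held values of both signs, and EHF, likewise named after its value was seen, had 0.69 (0.27 with the trend removed).

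Of 27 antimicrobial and antiprotease genes, 7 were kept and 0 were called, and their median was -0.49, which became -0.08 without the trend. CST3 (cystatin C, an inhibitor of cysteine proteases) had a log2 ratio of -0.67 at 407.0 and 645.3 CPM, and SERPINB1, which inhibits neutrophil proteases, had 0.16 at 212.9 and 190.9 CPM. Among 28 relatives of LYZ, LCN2, SPP1 and AGR2 by protein family, 6 were kept. AMBP (-1.75), APOM (-1.56) and RBP4 (-1.17), lipocalins made by hepatocytes, were called lower, beside 4.65% of all kept genes. None was called higher, and the median was -0.49. With a filter at 5 CPM AMBP alone was called and the median of the list turned to 0.18, and with no filter it was -1.04. RBP4 passed the filter through MHCC97L alone, which favours a lower value in MHCC97H, and was no longer called with the trend removed (-0.74). APOM shares exons with BAG6 on the opposite strand. The most abundant, TXNDC12 and LCN10, had log2 ratios of 0.18 and 0.26. Each shares exons with another annotated gene on its own strand, so their counts are uncertain.

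Of 19 receptors and partners of these secreted proteins, 11 were kept, with a median of 0.22. The integrin gene ITGB6, a subunit of an osteopontin-binding integrin, was called higher (1.20, or 0.60 with the trend removed) and 0 were called lower. CD44 stood at 897.0 and 772.8 CPM, a log2 ratio of 0.22, and the granulin gene GRN, whose product SLPI protects from elastase, at -0.78. For inputs through NF-kB, IL-6 and IL-17, which are known to induce LCN2, 18 of 19 genes were kept with a median of -0.02, which turned to 0.15 with total counts and 0.04 with the trend removed. TLR4, the endotoxin receptor gene, was called higher (1.06, or 0.33 with the trend removed), and NFKBIA, the NF-kB inhibitor gene that is itself induced by NF-kB, was called lower (-1.28, or -1.03). IRAK1 and CEBPB led that list by level, with log2 ratios of -0.18 and -0.58. ITGB6 and TLR4 each share exons with another annotated gene on the same strand, so their counts are uncertain.

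**Figure D5:**
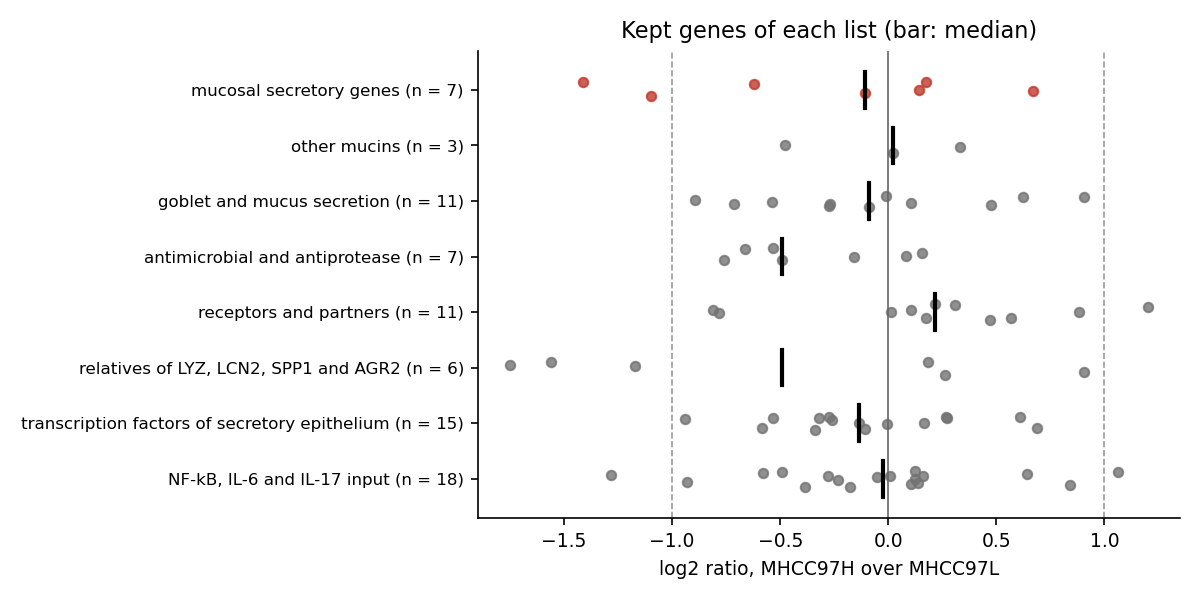
Log2 ratio of MHCC97H over MHCC97L for each kept gene of the mucosal secretory set (red) and of 7 related lists (grey), with the number kept and the median (bar); dashed lines mark 2-fold. No list median reached 2-fold, and the genes past the dashed lines were MUC1, TFF3, AMBP, APOM, RBP4, NFKBIA, ITGB6 and TLR4.

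Marker lists of other epithelia gave mixed counts, to be read beside the 4.65% of all kept genes called lower and 7.06% called higher. Of 7 bile duct markers, all kept, KRT7 (-1.20) and the water channel gene AQP1 (-1.51) were called lower and CFTR (1.19), the chloride channel gene, higher, with a median of -0.27. With the trend removed AQP1 alone was called. Of 15 gastric and intestinal markers, 3 were kept and 0 called. LGALS4, a gut galectin, had 35629 and 37958 reads, VIL1 (villin) had 9719 and 7365, and CDX2 had 146 and 73. The gastric genes GKN1, GKN2 and MUC6 had 0 reads in both libraries. The intestinal markers MUC2 (1 and 0 reads), CDX1 (1 and 7) and CDH17 (5 and 0) were also low. So were GPA33 (2 and 1), CEACAM5 (3 and 14) and CEACAM6 (13 and 4). Of the 10 hepatocyte markers, 7 were kept, and ALB (-1.58) and AMBP were called lower with a median of -0.65 and 0 called higher. With the trend removed APOB (-1.31), the apolipoprotein B gene, was also called lower. Whether any of these lists moves with the 10 genes for a shared reason was not tested.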

How the data were processed

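Per the labels' protocols, RNA was extracted with Trizol, poly(A)-selected and made into NEBNext Ultra libraries. The deposited table holds raw read counts per gene for 1 library of each line, not normalised. The submitters' processing notes name HISAT2 2.1.0, HTSeq 0.11.2, bcl2fastq and the build hg19. Which annotation and strand setting were used, and how multi-mapped reads were handled, is not given in the sources used here.

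Libraries were scaled by TMM on kept genes (edgeR 4.0.16, R 4.3.3; factors 1.06 and 0.942). Log2 ratios used a prior count of 0.5, with exact Clopper-Pearson 95% intervals of the read split. A count of 0 was given the limit of 3 counts. The ratio, call and trend steps were checked on simulated data. Lengths and GC content came from GENCODE 29, matched for 96.7% of kept genes; the trend used lowess with a span of 0.2. Python 3.11.15, statsmodels 0.14.6 and DESeq2 1.42.0 (size factors only) were also used.

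All 10 members were named. From each list, called genes (where 5 or fewer) and the 2 most abundant were named, with the genomic neighbours of each member and the 3 genes nearest to LYZ; a gene that this rule selects is not reported here. Members and lists were chosen with earlier results of these data known.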

Additional observations from a re-analysis of the deposited data

How the results depend on the processing

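With 1 library per line nothing could be left out, and no paired analysis was possible because each line has a single library and no replicate pairs exist. The number of members at least 2-fold lower in MHCC97H was 2 with TMM scaling, 1 with total counts, when TFF3 stood at -0.92, and 0 once the GC and length trend was removed. Scaling to total counts shifted log2 ratios upward by 0.17. The number higher was 0, and 1 at a 1.5-fold threshold (AGR2). The median log2 ratio of the members was -0.11, and became 0.066 with total counts, -0.62 with no filter, -0.36 with the trend removed and -0.61 with the trend taken over protein-coding transcripts. With no filter TFF1 was also called lower, on 11 and 21 reads. A filter at 5 CPM, a prior count of 2, median-of-ratios factors and an assumed coefficient of variation of 0.2 changed no member's call. With total counts AGR3 was called higher in both of its lists, and ITGAV, an integrin gene named after its value was seen, joined ITGB6 among the receptors. The NF-kB, IL-6 and IL-17 list then had 2 higher calls in place of 1, and the relatives 2 lower in place of 3. Over single genes, list counts, list medians and ranks, 346 comparisons with an alternative kept their call or stayed within counting error or 1.5 times. A further 75 moved more. Part of the 346 were fixed in advance, since a member's log2 ratio does not depend on the filter, fold threshold or assumed coefficient of variation. The tally is therefore no measure of stability. The log2 ratios of members lost a call in 4 further comparisons and gained one in 4, while calls lost or gained in lists are among the counts above. Depth limits SLPI, TFF1 and TFF2.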

Other observations

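Other families of secreted proteins were looked at after their values were seen. Of 10 secretoglobin genes, which encode small secreted proteins of airway and glandular epithelium, 2 were kept. Both were called lower in the MHCC97H library, against 4.65% of all kept genes. Each passed the filter through MHCC97L alone, which favours a lower value in MHCC97H, so their shared direction supports no conclusion. SCGB1D4 had 0 reads there and 77 reads in MHCC97L (3.27 CPM), and the bound of its 95% counting interval nearest to equality was a log2 ratio of -4.74. SCGB2A1 had 16 and 42 reads, a log2 ratio of -1.74 (95% counting interval -2.71 to -0.92). Over all 10 genes the summed level was 0.650 CPM in MHCC97H, most of it from SCGB2A1 (0.520 CPM). In MHCC97L it was 6.04 CPM, most of it from SCGB1D4.

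Of 16 kallikrein genes, which encode secreted serine proteases, 7 were kept and 0 were called. They are known from glandular epithelium, except for the plasma kallikrein gene KLKB1, which had 0 and 3 reads and was not kept. KLK6 was the most abundant, at 95.3 and 128.0 CPM. Of 11 galectin genes, 7 were kept, and LGALS1 (-1.76), LGALS2 (-1.10) and LGALS7 (-3.04) were called lower. Over all kept genes 4.65% were called lower, a share that is background only for families picked after their values were seen. LGALS7 passed the filter through MHCC97L alone, which favours a lower value in MHCC97H. It also has a near-identical copy in the genome, which makes its value uncertain. LGALS2 (-0.70) was no longer called with the trend removed.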
